A study of Mus musculus with 4 samples.

Results

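The genes of the cytoplasmic ribosomal proteins were compared between *Dnmt1* KO and control interneurons of the embryonic basal telencephalon. Members were found by name, as the table rows with a symbol built like *Rpl* or *Rps* and a number, or *Rplp0*, *Rplp1*, *Rplp2* and *Rpsa*, which gave 87 of 56883 rows. They comprised 46 genes of the large subunit, 30 of the small subunit and 11 paralogues or copies such as *Rpl22l1*. Of these 11, *Rpl6l*, *Rpl32l* and *Rps12l1* are annotated as processed pseudogenes, the remains of copied mRNAs. Genes were chosen by name alone, and no measured value entered the rule.

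The ribosome builds all proteins of the cell from mRNA, and each of its subunits holds ribosomal RNA and a fixed set of ribosomal proteins, most of them in a single copy. The genes are expressed at high levels in nearly every cell type, and dividing cells in general make more ribosomes than resting ones. Their mRNAs belong to the class with a terminal oligopyrimidine tract, a C at the cap followed by a run of C and U, through which mTORC1 signalling and the RNA-binding protein Larp1 control their translation and stability.

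Total RNA was sequenced from tdTomato-positive cells that had been sorted by FACS from the basal telencephalon at E14.5, with 2 libraries per genotype. Control embryos carried *Sst-Cre/tdTomato* and *Dnmt1* KO embryos *Sst-Cre/tdTomato/Dnmt1 loxP2*, so that the Cre driver and the reporter were shared and the floxed *Dnmt1* alleles were not. Cre is expressed from the *Sst* gene, and *Dnmt1*, which encodes a DNA methyltransferase, is thus deleted once a cell has begun to express somatostatin. Each library was made from cells of several pooled embryos, so that single embryos cannot be compared, and the sex of the embryos is not given in the labels.

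Recovered reads came to 6970247 to 8376711 per library. A total of 14323 genes reached an average of 10 normalized counts over the 4 libraries and were compared on log2(normalized count + 1) with limma, with Benjamini-Hochberg adjustment over all of them, and calls were made at an adjusted p below 0.05. *Dnmt1* itself was counted at 2238 and 2341 in control cells, and at 2164 and 2210 in *Dnmt1* KO cells (log2 fold change -0.066 with a standard error (SE) of 0.054, adjusted p = 0.461 in limma), and this count covers all exons, not only the floxed ones. The interneuron markers *Sst*, *Lhx6* and *Gad1* were abundant in every library, with at least 1144 normalized counts each.

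Ribosomal protein mRNAs were lower in *Dnmt1* KO cells as a group, by a small amount. Of the 82 members that passed the filter on low counts, 54 fell, 0 rose and 28 did not pass the test, while limma called 8.99% of all 14323 genes lower and 8.3% higher. The median log2 fold change of the 82 members was -0.225, against -0.003 for all genes tested, and 80 members lay below 0, as did 50.5% of all genes. Members had smaller standard errors, with a median of 0.062 against 0.157 for all genes tested. A difference of a given size was thus called more readily in members, and the lower quartile of all genes stood at -0.229. In 74 of the 82, both *Dnmt1* KO libraries lay below both control libraries, a pattern found in 29% of all genes, and in 0 of the 82 they lay above both, as in 28.4% of all genes. Fold changes are given on the log2(normalized count + 1) scale. These counts depended on the model. After a correction for the length and GC content of transcripts, 15 members were called lower and 1 higher, against 7.71% and 10.4% of all genes. The median of the members was then -0.026, and that of all genes 0.042. Limma without a variance trend called 0 members. Markers of blood and of cycling cells were lower and interneuron markers higher in the same *Dnmt1* KO libraries. In sorted bulk RNA, fewer cells with a high ribosomal protein content and less such mRNA per cell cannot be told apart.

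Together, the 87 genes took 2.24% and 2.27% of all reads in control cells, but 1.86% and 1.87% in *Dnmt1* KO cells. The libraries of a genotype were thus nearly level, and the genotypes did not overlap. Relative to the control mean, the median log2 ratio over the 76 genes other than paralogues was 0.004 and -0.004 in control, but -0.232 and -0.230 in *Dnmt1* KO cells.

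**Figure D1:**
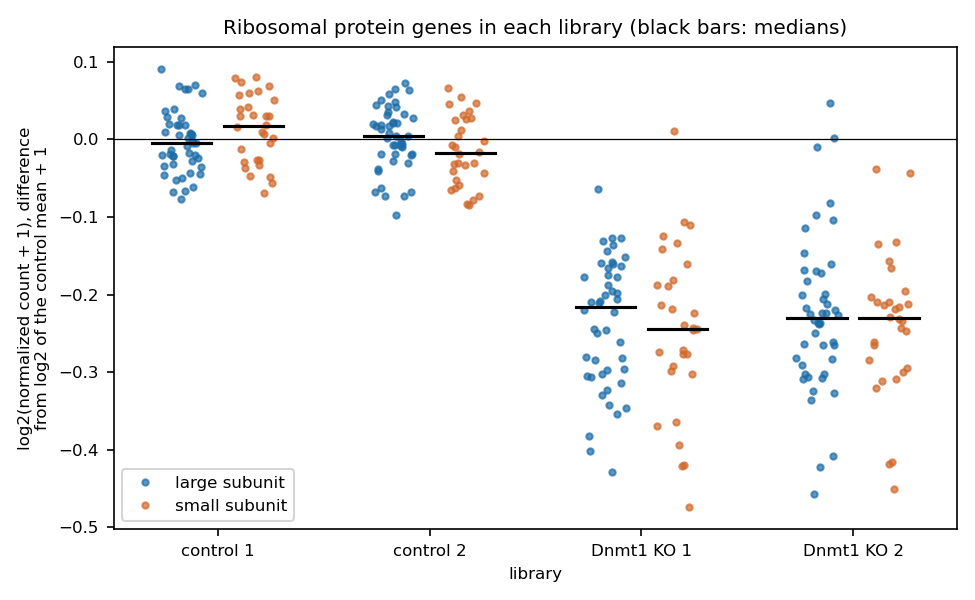
Each point is a gene of the large (blue) or small (orange) subunit in a library, plotted as the log2(normalized count + 1) minus log2 of the control mean + 1, and black bars are medians over genes. Both *Dnmt1* KO libraries sit below both control libraries, with medians from -0.244 to -0.216.

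Both subunits were lower to a similar extent. In the large subunit, 33 of 46 genes fell, the median log2 fold change being -0.227 and the extremes -0.42 and -0.037. In the small subunit, 20 of 30 fell, the median being -0.227 and the extremes -0.43 and -0.016. Over these 76 genes the median ratio of *Dnmt1* KO to control means was 0.855. Their log2 fold changes had an SD of 0.087, while the median standard error of a single gene was 0.061. Summed counts of the large subunit were 1.68 and 1.69 times those of the small subunit in control, and 1.70 times in both *Dnmt1* KO libraries. This ratio was higher in both *Dnmt1* KO libraries, and an exact permutation test of 2 against 2 libraries cannot go below p = 0.333.

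**Figure D2:**
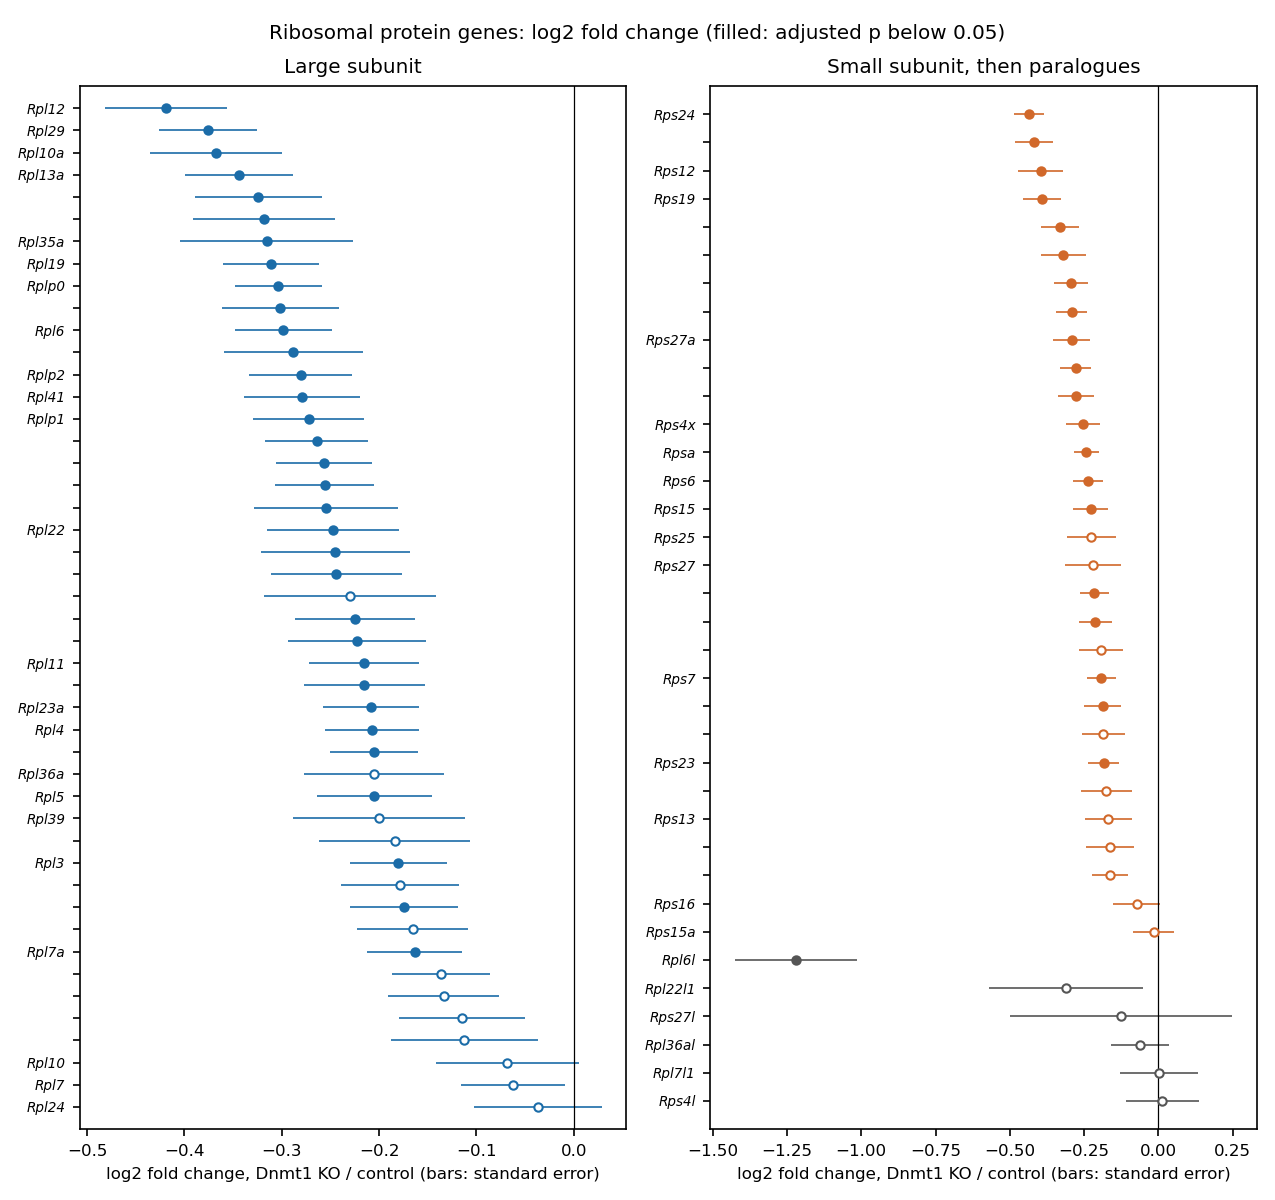
Log2 fold changes of the 82 members tested (x axis, wider on the right), with bars for the standard error and filled points for adjusted p below 0.05 from limma, and names for the genes that the text names. All 76 genes of the subunits lie left of 0, and the paralogues spread from -1.22 to 0.014.

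Members with large, middling and small differences are shown here with the 30 bases around a RefSeq transcription start (GRCm38.p6, as the RefSeq table gives it, read 5′ to 3′ on the strand of the gene, with 15 bases before the start and 15 from it). Capitals mark the longest run made of a C followed by at least 5 bases that are each C or T, the letters of a terminal oligopyrimidine tract in DNA, and a sequence without capitals has no such run. The set was chosen to show runs of different lengths in genes that fell and in genes that did not.
*Rps24* (chr14:24490663-24490692, plus strand): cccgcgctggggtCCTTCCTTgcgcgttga
*Rpl12* (chr2:32961697-32961726, plus strand): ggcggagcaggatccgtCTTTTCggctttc
*Rps12* (chr10:23787195-23787224, minus strand): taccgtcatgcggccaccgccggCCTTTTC
*Rpl7a* (chr2:26910792-26910821, plus strand): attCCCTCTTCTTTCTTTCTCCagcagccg
*Rps6* (chr4:86857353-86857382, minus strand): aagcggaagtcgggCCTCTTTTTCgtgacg
*Rps15a* (chr7:118116133-118116162, minus strand): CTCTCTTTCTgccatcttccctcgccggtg
*Rplp0* (chr5:115559452-115559481, plus strand): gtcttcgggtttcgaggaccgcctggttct
*Rpl24* (chr16:55966260-55966289, plus strand): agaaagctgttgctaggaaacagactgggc
A run was found in *Rps24*, *Rpl12* and *Rps12*, which were among the genes with the largest falls, and also in *Rps15a*, the gene of the small subunit whose difference was nearest to 0. The run of *Rps15a* lay wholly before the annotated start, so an mRNA that begins at this start would not hold it. In *Rps12* the run lay after the start and reached the edge of the window. *Rplp0*, which fell, and *Rpl24*, which did not pass the test, had none in this window.

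RefSeq entries were matched to 64 of the 87 members, 56 of them genes of the subunits. Of the 56, 33 (58.9%) held such a run at any listed start, searched on the strand of the gene, compared with 25.5% of the 27025 genes in the table. Counted by start, 34 of the 66 starts of these genes (51.5%) held one, compared with 22.5% of the 32851 starts in the table. Members that fell and members that did not pass the test held it at near shares, 22 of 36 (61.1%) and 11 of 20 (55%). The subunits were alike in this too, with 20 of 34 genes of the large and 13 of 22 of the small subunit. A match describes the letters in the window and does not show where transcription began in these cells.

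*Rps24*, whose product is needed to process the RNA of the small subunit, had the largest fall of the main genes. Its normalized counts were 3699 and 3955 in control and 2861 and 2799 in *Dnmt1* KO libraries (log2 fold change -0.43, SE 0.051, adjusted p = 2.99e-05 in limma). *Rpl12*, whose product sits at the base of the ribosomal stalk, had 1660.0 and 1766 against 1314 and 1248 (log2 fold change -0.42, SE 0.063, adjusted p = 0.000274 in limma). In each of these genes both control libraries lay above both *Dnmt1* KO libraries. *Rps24* lies on chromosome 14 from 24537193 to 24547028 and *Rpl12* on chromosome 2 from 32851496 to 32855357 (GRCm39).

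*Rps12* was counted at 1346 and 1220.0 in control and at 923 and 1027 in *Dnmt1* KO libraries, a log2 fold change of -0.40 (adjusted p = 0.00187 in limma). *Rps19*, another protein needed to build the small subunit and known for its mutations in Diamond-Blackfan anemia, had 1779 and 1633 against 1325 and 1276, a log2 fold change of -0.39 (adjusted p = 0.000596 in limma). In both genes the genotypes did not overlap. *Rpl29* fell by 0.38 on the log2 scale, from 3882 and 3956 to 3119 and 2923, and *Rpl10a* by 0.37, from 1329.8 and 1366 to 1001 and 1089. *Rpl13a*, which also acts outside the ribosome in translational silencing, fell by 0.34, from 4615 and 5049 to 3973 and 3639.

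The stalk that recruits translation factors to the large subunit is formed by the products of *Rplp0*, *Rplp1* and *Rplp2*, and all 3 genes fell. *Rplp0* had 5914 and 6145 normalized counts in control and 4962 and 4807 in *Dnmt1* KO libraries (log2 fold change -0.30, adjusted p = 0.000222 in limma), *Rplp2* had a log2 fold change of -0.28 and *Rplp1* one of -0.27. *Rpl5* and *Rpl11* bind the smallest ribosomal RNA of the large subunit and, when free, the p53 regulator Mdm2. *Rpl5* had 2874 and 3012 against 2694 and 2419 (log2 fold change -0.20, adjusted p = 0.025 in limma), and *Rpl11* had 1912 and 1864 against 1637 and 1615 (log2 fold change -0.22, adjusted p = 0.0161 in limma). Both genes were thus lower by amounts near the median of the group, with more spread between the *Dnmt1* KO libraries for *Rpl5*.

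*Rpsa*, a protein of the small subunit that is also known as the laminin receptor, was the most abundant member by count, with 8684 and 9078 in control and 7345 and 7667 in *Dnmt1* KO libraries (log2 fold change -0.24, SE 0.042, adjusted p = 0.000978 in limma). *Rps6*, which kinases downstream of mTORC1 phosphorylate, had 3157 and 3211 against 2685 and 2717 (log2 fold change -0.24, adjusted p = 0.00363 in limma). *Rps27a*, which is made as a fusion with ubiquitin, had 1477 and 1487 against 1228 and 1194 (log2 fold change -0.29, adjusted p = 0.00398 in limma). In each of these genes the control libraries were the higher ones. *Rpl22* fell by 0.25 on the log2 scale and *Rpl41*, which encodes the smallest ribosomal protein, by 0.28. Both calls were lost with the trend over the length and GC content of transcripts removed, where the log2 fold changes were 0.0072 and -0.0065. Among the members described above, *Rps24*, *Rpl12*, *Rps19*, *Rpl29*, *Rpl5* and *Rps27a* kept a lower call under both length corrections given below. *Rpsa*, *Rps6*, *Rplp0*, *Rplp1*, *Rplp2*, *Rps12*, *Rpl10a*, *Rpl13a* and *Rpl11* did not.

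At the other end, 23 of the 76 genes of the subunits did not pass the test, and for 4 of them the libraries of the genotypes overlapped. *Rps15a* had 1101 and 1038 normalized counts in control and 1077 and 1038 in *Dnmt1* KO libraries, a log2 fold change of -0.016 (SE 0.068, adjusted p = 0.911 in limma). *Rpl24*, whose product forms a bridge between the subunits, had 1128 and 1134 against 1082 and 1123, a log2 fold change of -0.037 (adjusted p = 0.756 in limma). *Rpl7* had 3521 and 3429 against 3183 and 3479 (log2 fold change -0.062), and *Rpl10*, one of the last proteins to join the large subunit, had 2181 and 1974 against 1825 and 2147 (log2 fold change -0.068). For *Rps16* the log2 fold change was -0.072, and *Rps15a*, *Rpl7*, *Rpl10* and *Rps16* are the 4 genes with overlap. The other 19 genes without a call, *Rpl24* among them, had log2 fold changes of -0.23 to -0.037, and a p above the threshold does not show that they were unchanged.

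Expression per kilobase of the longest annotated coding sequence differed widely among the 76 genes. The control mean per kilobase had a median of 3447 normalized counts, from 1474 in *Rpl35a* to 15999 in *Rpl41*, while the median of all protein-coding genes tested was 129.9. After *Rpl41*, the highest levels per kilobase were those of *Rpl23a* (9993), *Rps23* (9831), *Rpsa* (9706) and *Rps24* (8798). The lowest after *Rpl35a* were *Rps25* (1508), *Rps13* (1631), *Rps16* (1733) and *Rps27* (1794). *Rpl23a*, *Rps23* and *Rpsa* differed from each other by less than the spread between the control libraries of *Rpl23a*, so their order is not resolved. Across the 76 genes, Spearman's rho between the log2 fold change and the control level per kilobase was -0.15, and with the control count it was -0.15, as a description of genes that share the same 4 libraries.

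**Figure D3:**
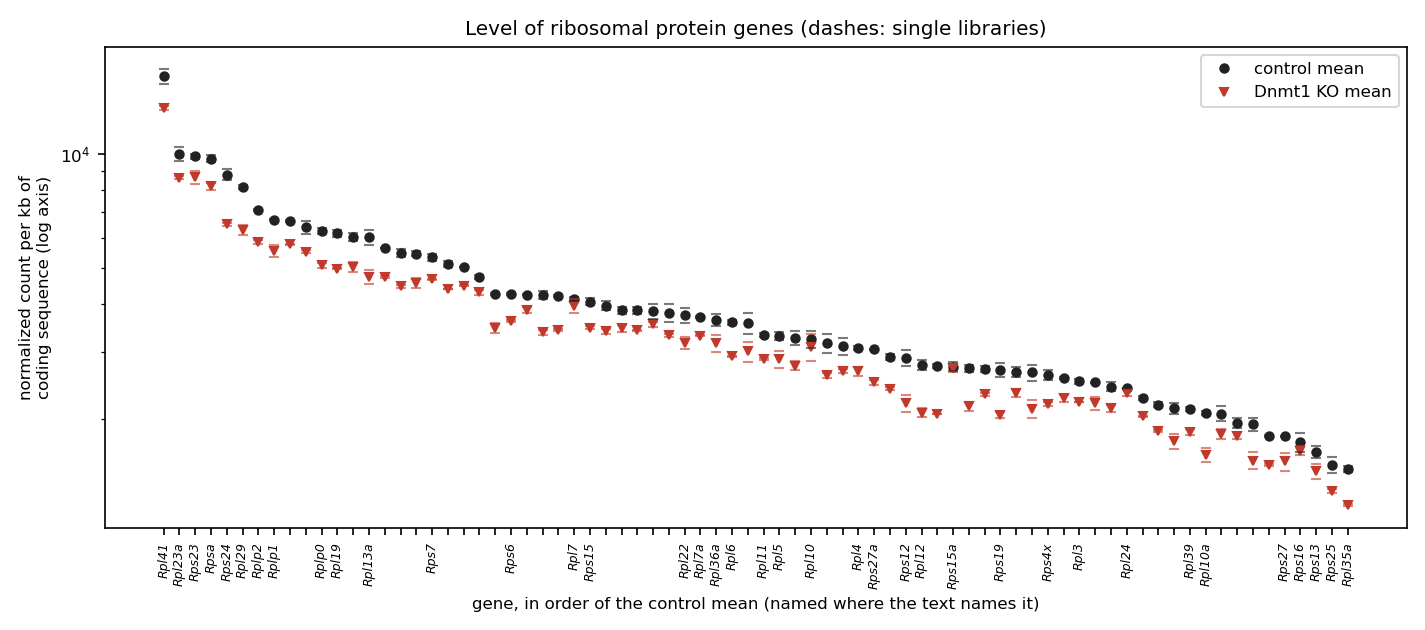
Mean normalized count per kilobase of coding sequence (log axis) for the 76 genes of the subunits in control (black) and *Dnmt1* KO (red) cells, ordered by the control mean, with dashes for the single libraries. Only genes named in the text are labelled. The red triangles lie below the black points from *Rpl41* (15999 in control) down to *Rpl35a* (1474), at a distance that is widest for *Rps24* (log2 fold change -0.43) and almost none for *Rps15a* (-0.016).

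Paralogues were expressed at a fraction of their main genes, and 6 of the 11 passed the filter. *Rpl36al*, on chromosome 12, reached 32.4% and 29.2% of the count of the X-linked *Rpl36a* in control and 33.1% and 35.0% in *Dnmt1* KO libraries. *Rps4l* reached 11.4% and 13.0% of the X-linked *Rps4x* in control and 14.8% and 14.4% in *Dnmt1* KO libraries. Both shares were higher in the *Dnmt1* KO libraries than in the control libraries. *Rps4x* fell from 2076 and 2212 to 1771 and 1822 (log2 fold change -0.25, adjusted p = 0.00636 in limma), and *Rps4l* had 236.2 and 286.9 against 262.4 and 263.3 (log2 fold change 0.014, adjusted p = 0.959 in limma). *Rpl7l1* stood at 7.76% to 11.5% of *Rpl7*, *Rps27l*, which p53 induces in other cells, at 4.27% to 9.17% of *Rps27*, and *Rpl22l1* at 3.26% to 4.60% of *Rpl22*, and in each of these pairs the genotypes overlapped.

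The copy *Rpl6l* differed most of all members. Its counts were 113.6 and 106.2 in control and 47.3 and 45.9 in *Dnmt1* KO libraries (log2 fold change -1.22, SE 0.205, adjusted p = 0.000726 in limma), from 321 recovered reads in all. Its count equalled 3.52% and 3.38% of that of *Rpl6* in control and 1.84% and 1.76% in *Dnmt1* KO libraries, and *Rpl6* itself fell from 3228 and 3143 to 2576 and 2604 (log2 fold change -0.30, adjusted p = 0.000692 in limma). *Rpl6l* lies on chromosome 10 from 110961712 to 110962582 (GRCm39) as a single exon. Reads of such copies can be shared with the parent gene, and values of both are uncertain to that extent.

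*Rpl22l1* (log2 fold change -0.31, adjusted p = 0.463 in limma), *Rps27l* (-0.12, adjusted p = 0.864 in limma), *Rpl36al* (-0.061, adjusted p = 0.727 in limma) and *Rpl7l1* (0.003, adjusted p = 0.992 in limma) did not pass the test. *Rpl3l*, known from heart and skeletal muscle, and *Rpl39l*, known from testis, had no read in any library, and *Rpl10l*, also known from testis, had 3 in all. *Rpl32l* had 6 reads in all, and *Rps12l1* had 37, which were in 1 library of each genotype. None of these 5 reached the minimum average of 10 normalized counts, so no test of them is given.

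Many ribosomal protein genes have further copies, and 322 rows of the table carry a ribosomal protein symbol that ends in -ps, of which 49 were tested. Limma called 22 of them lower and 0 higher, against 8.99% and 8.3% of all genes, with a median log2 fold change of -0.88. Values under a length correction are not given for them. Their summed counts equalled 2.95% and 2.87% of those of the 87 members in control and 2.04% and 2.02% in *Dnmt1* KO libraries. The median of these copies lay further below 0 than that of the members, a difference that was not tested.

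Ribosomal proteins can also have symbols that the name rule leaves out. *Rps3a1* had a log2 fold change of -0.21 (adjusted p = 0.0099 in limma) and *Fau*, in which a small-subunit protein is fused to a ubiquitin-like domain, one of -0.32 (adjusted p = 0.00205 in limma), and both fell. With the trend removed they stood at -0.015 and -0.088 and were not called. Within the spans of 29 of the 76 genes lie 57 annotated small nucleolar RNA genes on the same strand. Of these 29 hosts 21 fell, at a median log2 fold change of -0.21. Of the 47 others 32 fell, at a median of -0.24. Of the 76 genes, 47 overlap an annotated gene on the other strand and 5 another gene on their own strand, and reads of neighbours on the same strand may be included in their values. The library kit keeps strand, but whether it was used in counting is not given in the sources used here, so reads of neighbours on the other strand may be included too. Among the 4 X-linked genes, *Rps4x* fell, and *Rpl10*, *Rpl36a* and *Rpl39* did not pass the test.

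Other genes of translation were grouped into lists by role and read against the 8.99% of all genes called lower and 8.3% called higher. Of 41 translation factors and associated proteins, 13 fell and 0 rose, with a median log2 fold change of -0.12. With the trend over the length and GC content of transcripts removed, 5 were called lower and 0 higher, against 7.71% and 10.4% of all genes. Their median was then -0.044, and that of all genes 0.042. *Eef1d*, a subunit of the elongation factor exchange complex, fell from 836 and 823 to 498 and 592 normalized counts (log2 fold change -0.61, adjusted p = 0.000221 in limma). *Eif3i* and *Eif3g*, subunits of an initiation factor, each fell by 0.31 on the log2 scale. *Tpt1*, whose mRNA also begins with an oligopyrimidine tract, fell by 0.30, from 8234 and 8486 to 6712 and 6887. *Rack1*, which sits on the small subunit, fell by 0.24, and *Eef1a1*, the main elongation factor, by 0.12, whereas *Eef2* had a log2 fold change of -0.039 (adjusted p = 0.521 in limma). Of these genes *Eef1d* kept its call after the correction (-0.52, adjusted p = 0.000911 in limma), and *Eif3i*, *Eif3g*, *Tpt1*, *Rack1* and *Eef1a1* lost theirs, with log2 fold changes of -0.105, -0.093, -0.084, -0.072 and -0.067.

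Of 46 genes for the assembly of ribosomes, 3 fell and 1 rose, with a median log2 fold change of -0.090, shares below those of all genes. Those that fell encode nucleolar proteins, *Nolc1* (-0.39), *Npm1* (-0.30) and *Ncl* (-0.20), and *Gnl3l*, a nucleolar GTPase, rose from 766 and 769.8 to 869 and 934 (0.23, adjusted p = 0.0423 in limma). With the trend removed, 4 of the 46 were called lower and 2 higher, against 7.71% and 10.4% of all genes, and their median was -0.022. Of 19 genes for the synthesis of ribosomal RNA, 1 fell and 0 rose, also a share below that of all genes, with a median of -0.033. This was *Ubtf*, the activator of RNA polymerase I, at a log2 fold change of -0.18 and just under the threshold (adjusted p = 0.0494 in limma), and its call was lost with the trend removed (-0.072, adjusted p = 0.452 in limma). In that fit 0 of the 19 were called lower and 1 higher, *Brf1* (0.31, adjusted p = 0.0263 in limma). Of 24 genes of the mTORC1 and Myc pathways, limma called 0 in either direction, with a median of -0.009. With the trend removed it called 2 higher, *Mtor* (0.24, adjusted p = 0.0322 in limma) and *Eif4ebp2* (0.25, adjusted p = 0.0203 in limma), at a median of 0.073. This share was below the 10.4% of all genes called higher in that fit, where the median of all genes was 0.042. Without the correction, *Mtor* had 1033 and 1040.3 against 1112 and 1254 normalized counts (log2 fold change 0.19, adjusted p = 0.0883 in limma), *Larp1* a log2 fold change of -0.069 and *Myc* one of 0.13. Of 13 long noncoding RNAs that host small nucleolar RNAs, many of which share the oligopyrimidine start, 12 were tested and 1 fell, with a median of -0.053. This was *Snhg4*, at 129.8 and 98.0 against 71.0 and 21.9 (log2 fold change -1.49, adjusted p = 0.0124 in limma), with a wide gap between the *Dnmt1* KO libraries, while *Gas5* had a log2 fold change of -0.11 (adjusted p = 0.528 in limma).

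Length moved with the difference across the transcriptome, and ribosomal protein genes are short. Coding sequences of the 76 genes ranged from 138 to 1317 bases, with a median of 490.5, against 1495.5 for all protein-coding genes tested. Among the 841 other protein-coding genes with less than 500 coding bases, the median log2 fold change was -0.12 and 14.1% fell. The 43 members in this range had a median of -0.22, and 21 of them fell. From 500 to 1000 bases, the 2525 other genes had a median of -0.071 and 8.67% fell, while the 36 members had a median of -0.26 and 30 fell. In both ranges the median of the members was lower than that of the other genes, and the median of the other genes rose to 0.11 above 8000 bases. Among the 76 genes themselves, Spearman's rho of the log2 fold change was -0.12 with coding length, -0.10 with the length of the annotated transcript and -0.26 with its GC content.

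**Figure D4:**
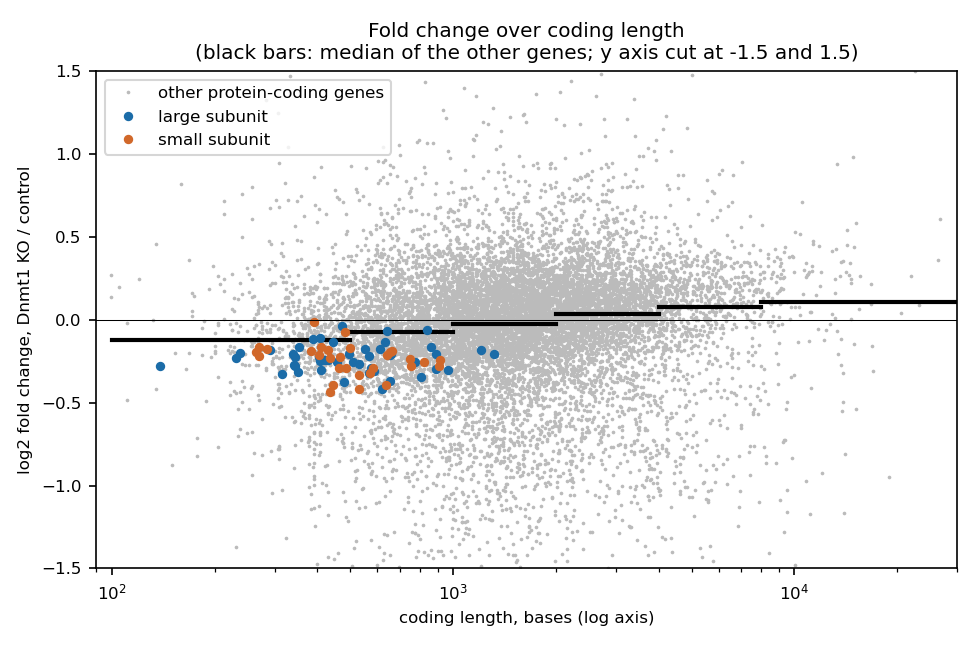
Log2 fold change (y axis) over the length of the coding sequence in bases (x axis, log scale) for protein-coding genes, with members of the large (blue) and small (orange) subunit and black bars for the median of the other genes in each range of length. The bars climb from -0.12 below 500 bases to 0.11 above 8000, and most coloured points lie under the bar of their range.

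After each library was corrected for a smooth trend with the length and GC content of transcripts, 15 of the 82 members were called lower and 1, *Rpl24*, higher (log2 fold change 0.22, adjusted p = 0.0288 in limma), against 7.71% and 10.4% of all genes. The median of the members was then -0.026, and that of all genes 0.042. With coding length in place of transcript length, a choice made after the data were seen, 14 of 81 were called lower and 0 higher, against 7.32% and 12.5% of all protein-coding genes, and the medians were -0.069 and 0.056. *Rpl12*, *Rpl19*, *Rpl29*, *Rpl4*, *Rpl5*, *Rpl6*, *Rps19*, *Rps24* and *Rps27a* were called lower without a correction and under both, which makes 9 members, and 6.6% of the 12278 protein-coding genes were called in the same way. For *Rps24* the log2 fold change stood at -0.34 and -0.30 under the corrections (adjusted p = 0.000251 and 0.000151 in limma).

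**Figure D5:**
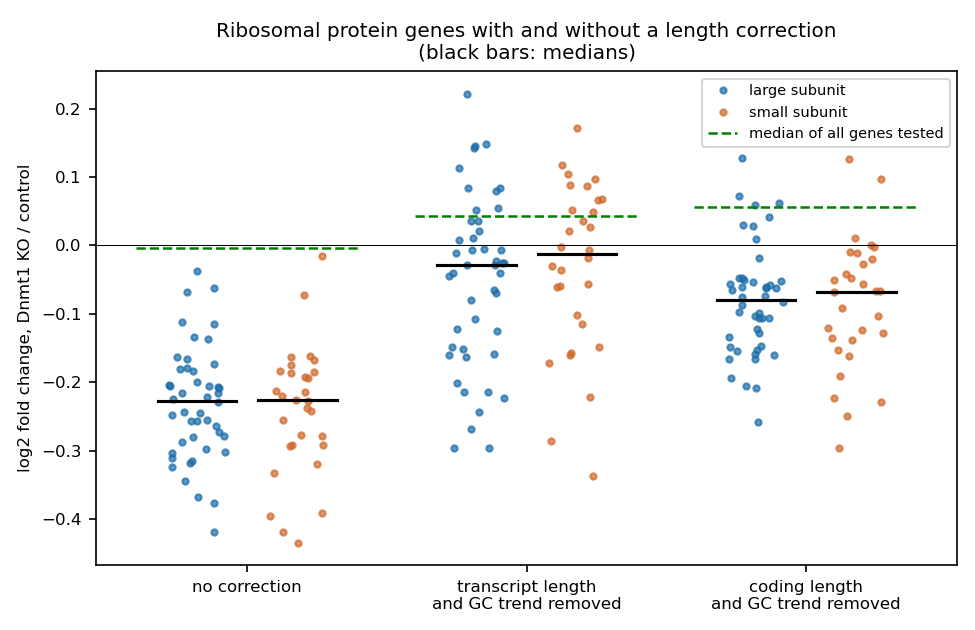
Log2 fold changes of the 76 genes without a correction and with each library's trend over length and GC content removed, by transcript length or by coding length, with black bars for medians by subunit and green dashes for the median of all genes tested. The medians move from -0.227 in both subunits to between -0.080 and -0.012, and in each setting they stay below the green line.

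Markers of several cell types differed between the genotypes in the same libraries. Of 9 interneuron markers, 8 rose, and their summed counts went from 17782 and 18027 in control to 26604 and 26657 in *Dnmt1* KO libraries, with *Sst* at 5580.4 and 5963 against 8303 and 7825 and *Lhx6* at 2714 and 2679 against 4270.0 and 4674. All 8 blood markers tested, of a list of 12, fell, the median log2 fold change being -2.10 with sums of 2615 and 2434 against 587 and 593, and *Gata1* was at 0 in every library. Of 10 genes of cycling cells 9 fell, with a median of -0.54 and sums of 7010.4 and 6860.4 against 4873 and 4833. Of 9 markers of radial glia, the neural progenitors, 6 fell and 1 rose (sums of 10564 and 10733 against 6384 and 6619), and of 7 markers of the excitatory lineage 5 fell (2550.4 and 2603 against 1468 and 1334). Of 12 markers of microglia, vessels and mesenchyme, 9 were tested and 8 fell (622 and 665 against 262 and 312). Their part in the lower ribosomal protein mRNA was not tested.

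Leaving out a library lowered the number of calls. In fits without 1 library at a time, 37 to 41 of the 82 members were called lower, and 27 were called every time, as were 3.5% of all genes. These 27 included *Rpl6l*, *Rps24*, *Rpl12*, *Rpsa*, *Rps6* and the 3 stalk genes, and all of them were also called lower by edgeR and DESeq2 on recovered reads. On those reads edgeR called 54 members lower, against 9.09% of all genes, and DESeq2 40, against 4.77%. Limma with the same prior variance at every expression level called 0 members and 0 genes in all, and 25 members had an unadjusted p below 0.05.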

How the data were processed

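Total RNA of FACS-sorted tdTomato-positive cells was analysed in 4 libraries, 2 control and 2 *Dnmt1* KO, grouped by the sample labels. The authors used Trim Galore for trimming, STAR for alignment to GRCm39, Salmon for quantification and DESeq2 to normalize counts (per the labels and the study's methods). The deposited values are thus a signal, a normalized count per gene and library. Each library's values above 0 (100% of them) are whole multiples of a common unit, within a tolerance of 0.0001 of a read, and the reads recovered in this way served the alternatives. The library kit was strand-specific (SMARTer Stranded Total RNA-Seq), and whether counting used strand is not given in the sources used here.

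Genes averaging 10 or more normalized counts entered limma 3.58.1 (R 4.3.3, lmFit and eBayes with a trend) on log2(normalized count + 1), with genotype as the only term, two-sided, and Benjamini-Hochberg adjustment over 14323 genes at 0.05. Whether samples with the same replicate number share a pool is not stated. The p-values rest only on these 2 libraries per genotype, through the spread of each gene and a prior variance that limma takes from genes of similar expression. The alternatives were pseudocounts of 0.5 and 10, minimum counts of 1 and 50, TMM rescaling, quantile normalization, no variance trend, recovered reads in edgeR 4.0.16, DESeq2 1.42.0 and limma-voom, a correction of each library for its trend over transcript or coding length and GC content (spline, 5 degrees of freedom), a replicate block, and fits without 1 library at a time. Steps were tested on simulated data. Positions and lengths came from GENCODE on GRCm39, and start sequences from RefSeq on GRCm38.p6.

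Genes named were all paralogues tested with their main genes, the 5 largest differences in each direction, the 5 highest and 5 lowest levels, members called, fixed genes of known function, ribosomal proteins outside the name rule, and up to 4 genes per translation list with the largest change. The levels were ranked per kilobase of coding sequence, since annotated transcripts of these genes are often too long. A few genes that fall under this rule are not reported here. Other genes named from the lists were chosen after their values were seen. The members and lists were chosen with earlier results of these data known.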

Additional observations from a re-analysis of the deposited data

How the results depend on the processing

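All 66 single genes tracked kept their direction and their side of the threshold under edgeR, limma-voom and pseudocounts of 0.5 and 10. Single calls moved for 2 and 1 genes at minimum counts of 1 and 50, for 1 after quantile normalization and for 13 with DESeq2. Limma without the variance trend called 0 members and 0 genes in all, where 25 members and 3339 genes had an unadjusted p below 0.05. DESeq2 called 1317 genes in all instead of 2476. With the replicate number as a block, 55 members and 2957 genes were called, and among named members the block moved only *Rpl36a* past the threshold (limma's adjusted p = 0.0358). The labels give no pairing, and deviations of libraries with the same number correlated at -0.085 over 14323 genes.

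The median log2 fold change of all members, of the large and of the small subunit was -0.237, -0.239 and -0.239 after TMM rescaling and -0.274, -0.281 and -0.277 after quantile normalization. It was -0.026, -0.029 and -0.012 with the transcript length and GC trend removed and -0.069, -0.080 and -0.068 with coding length, a setting added after the data were seen, where 15 and 14 members were called lower and 1 and 0 higher. Among the single genes tracked, the transcript length correction turned the sign of *Rpl22* (0.0072), *Rpl23a* (0.036), *Rpl36a* (0.021), *Rpl3* (0.011), *Rpl7a* (0.084), *Rpl7* (0.080), *Rpl24* (0.22), *Rps27l* (0.062), *Rps15* (0.036), *Rps27* (0.021), *Rps7* (0.049), *Rps13* (0.098), *Rps16* (0.17) and *Rps15a* (0.027). Coding length turned *Rpl7* (0.041), *Rpl24* (0.13), *Rpl36al* (0.090), *Rps16* (0.098) and *Rps15a* (0.13), and TMM turned *Rpl7l1* (-0.0091). The cause was not tested.

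With each library left out, 1525 to 2205 genes in all were called, lowest without control replicate 2 and at 1648 without control replicate 1, with 37 to 41 members lower. The median ranged from -0.240 to -0.223 over all members, from -0.246 to -0.216 in the large and from -0.245 to -0.228 in the small subunit. Among the single genes tracked, values crossed 0 for *Rpl7* (-0.13 to 0.0016), *Rps27l* (-0.58 to 0.33), *Rpl7l1* (-0.22 to 0.22), *Rps4l* (-0.13 to 0.15), *Rps16* (-0.15 to 0.0087) and *Rps15a* (-0.058 to 0.026). *Rpl10* was not tracked, and its sign also depended on the library left out. Its counts were 2181 and 1974 in control and 1825 and 2147 in *Dnmt1* KO libraries. With a library left out, the lone library of that genotype is assumed to vary like the others. At 2 libraries per genotype, differences the size of the standard errors (median 0.061 for genes of the subunits) were not resolved.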
